A study of Mus musculus with 18 samples.

Results

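Long noncoding RNA genes were followed in 3 settings, MCA205 cells, TC1 cells and TC1 tumours, each with wild-type libraries and libraries labelled sgNAT10. A transcript was counted as a long noncoding RNA when the deposited tables typed it as lincRNA, antisense, lncRNA, macro_lncRNA, bidirectional_promoter_lncRNA or sense_intronic. Transcripts on chromosomes X and Y were left out, and the rest were summed per gene. This gave 3926 genes in the MCA205 table, 3932 in the TC1 cell table and 3986 in the tumour table, of 30365, 30386 and 30631 genes in all. Over all tables together, 5211 of 35310 genes were long noncoding, and 2809 of them were listed in all 3. In MCA205 cells 1794 genes held lincRNA transcripts, which lie between coding genes, and 1769 held antisense transcripts, which run opposite to another gene. A further 181 held transcripts from bidirectional promoters and 195 held sense intronic ones.

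The 18 libraries fell into 6 groups of 3. MCA205 cells come from a mouse fibrosarcoma raised with methylcholanthrene. TC1 cells are usually held to be lung epithelial cells made tumorigenic with papillomavirus oncogenes, but here their label, like that of MCA205, reads fibrosarcoma. Cells of both lines in culture were either wild type or carried the guide against Nat10, and the tumours came from wild-type or sgNAT10 TC1 cells placed under the skin of mice and taken on day 8. NAT10 acetylates cytidines in RNA, and the study's title asks about antitumour immunity and type I interferon after its loss. No label names clones, cultures or animals, so a drift of the cultures and the action of the guide cannot be told apart. For the same reason the spread behind each p-value is that of libraries and may be technical.

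Long noncoding RNAs are transcribed much as mRNAs are, but most are kept in the nucleus or turned over quickly, and their levels are usually low and specific to a cell type. Some act by being transcribed, through the promoter or chromatin they share with a neighbouring gene, and some act as molecules, as Neat1 does when it builds the nuclear bodies called paraspeckles. The hosts of small nucleolar RNAs (snoRNAs) carry in their introns the RNAs that guide modification of ribosomal RNA, and their spliced exons are often degraded once they are translated. Others, such as Airn and Kcnq1ot1, silence the genes of imprinted clusters on 1 parental chromosome.

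The starts of a few of these genes, named again in the results below, are shown as a description. No level or call below depends on them. The first 5 are snoRNA hosts, in windows of 100 bases from RefSeq on GRCm38.p6, printed 5′ to 3′ on the strand of the gene, with the first 10 transcribed bases in capitals. They are the second start of Gas5 (chr1:161035116-161035215, plus strand), Snhg1 (chr19:8723437-8723536, plus strand), Snhg12 (chr4:132308628-132308727, plus strand), Snhg8 (chr3:123508287-123508386, minus strand) and Snhg18 (chr15:32244613-32244712, minus strand).
Gas5: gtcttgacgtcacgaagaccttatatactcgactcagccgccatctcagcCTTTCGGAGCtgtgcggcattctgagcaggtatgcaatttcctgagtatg
Snhg1: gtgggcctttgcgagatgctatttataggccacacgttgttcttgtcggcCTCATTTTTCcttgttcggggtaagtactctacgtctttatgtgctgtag
Snhg12: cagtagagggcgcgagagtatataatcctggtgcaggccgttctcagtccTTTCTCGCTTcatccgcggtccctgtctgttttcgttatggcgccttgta
Snhg8: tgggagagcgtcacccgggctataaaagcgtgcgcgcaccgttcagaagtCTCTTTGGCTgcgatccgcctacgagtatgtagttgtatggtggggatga
Snhg18: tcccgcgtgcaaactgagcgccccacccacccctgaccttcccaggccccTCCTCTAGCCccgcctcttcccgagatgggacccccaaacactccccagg
Transcripts that begin with an unbroken run of C and T are a known class, whose translation follows nutrient supply. A run of 5 such bases at a listed start was found in 6 of the 17 snoRNA hosts matched in the RefSeq table, 35.3%, beside 60 of 838 tested long noncoding RNA genes, 7.16%, and 1426 of 27025 genes, 5.28%. Gas5, Snhg12, Snhg8 and Snhg18 have it and Snhg1, with a run of 3, does not. This length of run was chosen after these values were seen.

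The next 3 windows, of 300 bases, belong to genes with large changes: Gm20559 (chr6:3346089-3346388, minus strand), A530040E14Rik (chr1:85105843-85106142, plus strand) and Lncenc1 (chr13:97434720-97435019, plus strand). Capitals mark GAAANNGAA, the core of the element through which interferon-activated factors bind DNA, or TATAAA, on either strand. The palindrome CACGTG was also searched and is in none of the 3.
Gm20559: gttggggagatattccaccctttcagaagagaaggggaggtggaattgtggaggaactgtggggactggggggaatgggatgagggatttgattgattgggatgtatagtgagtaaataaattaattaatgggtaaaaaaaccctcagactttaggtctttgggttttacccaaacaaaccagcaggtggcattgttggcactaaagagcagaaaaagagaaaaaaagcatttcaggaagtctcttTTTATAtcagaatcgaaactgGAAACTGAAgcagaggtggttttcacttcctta
A530040E14Rik: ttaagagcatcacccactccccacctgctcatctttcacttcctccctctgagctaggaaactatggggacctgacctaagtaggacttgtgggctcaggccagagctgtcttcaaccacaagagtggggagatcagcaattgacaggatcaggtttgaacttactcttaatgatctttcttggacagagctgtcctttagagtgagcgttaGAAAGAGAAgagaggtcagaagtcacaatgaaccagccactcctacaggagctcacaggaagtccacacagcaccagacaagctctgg
Lncenc1: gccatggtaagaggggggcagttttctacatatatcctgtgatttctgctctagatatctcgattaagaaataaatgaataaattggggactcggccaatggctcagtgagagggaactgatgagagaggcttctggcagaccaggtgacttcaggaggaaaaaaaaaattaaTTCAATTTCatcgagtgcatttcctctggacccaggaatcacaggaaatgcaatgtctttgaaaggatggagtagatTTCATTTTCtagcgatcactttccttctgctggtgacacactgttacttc
GAAANNGAA was found in 8.57% of the 27025 promoter windows of this length. RefSeq held a window for 838 of the 1838 long noncoding RNA genes tested in any comparison, 45.6%, so shares over called genes describe less than the whole. Of those 838 genes 9.19% held the letters. They were in 11 of 102 genes higher in sgNAT10 MCA205 cells (10.8%) and in 2 of 45 lower ones (4.44%). In TC1 cells they were in 5 of 44 higher genes (11.4%) and 10 of 108 lower ones (9.26%), and in tumours in 10 of 61 higher (16.4%) and 1 of 14 lower ones (7.14%). A match is only a match of letters.

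Each library held between 51661298 and 78501790 estimated counts. Nat10 transcript was about equal in the genotypes, at 14.2, 12.5 and 13.8 FPKM (fragments scaled to transcript length and library size) in wild-type and 13.2, 13.6 and 13.6 in sgNAT10 MCA205 cells, and it was not called in any setting, so it does not check the labels. Markers of liver and intestine, which neither line should hold, summed to between 674 and 1196 FPKM and between 200.04 and 689 FPKM in TC1 cells, and to between 0.743 and 518 FPKM in single MCA205 libraries, lowest in wild-type replicate 1 and sgNAT10 replicate 2. Only 4 long noncoding RNA genes followed that MCA205 pattern, of which 1 could be tested and 0 were called. In tumours the liver markers summed to 1.40 to 194 FPKM in wild type and 463 to 513 in sgNAT10. Of the 10 leukocyte markers there 6 had a higher and 4 a lower mean in sgNAT10, and only Lyz2, a lysozyme of myeloid cells, was called (lower, 545 to 331 FPKM). It carried their sum, which was 684 to 774 FPKM in wild type and 488 to 591 in sgNAT10 with it and 160.1 to 220.2 and 190.3 to 223 without it. All 5 endothelial markers were called higher there, with sums of 31.2 to 40.7 and 58.8 to 68.6. The part of these cells in any result below was not tested, and in bulk RNA fewer cells of a type and less RNA per cell cannot be told apart.

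Long noncoding RNA levels in the tumours were also set beside those of the 2 lines, as a descriptive check of the label. A list was made of 10 genes at 1 FPKM or more in wild-type MCA205 cells and under 0.5 in TC1 cells of both genotypes. Of these, among them Hotair and Hoxd3os1, 8 reached 1 FPKM in wild-type tumours. Gm13387 met the wild-type limits but rose above 0.5 in sgNAT10 TC1 cells and is not listed. It stayed under 0.5 FPKM in wild-type tumours. Hotair, a transcript of the HoxC cluster, stood at 1.94 FPKM in MCA205 cells, 0.0886 in TC1 cells and 1.81 in tumours. Of 10 genes with the reverse pattern in the cells, 0 reached 1 FPKM in wild-type tumours and 9 stayed under 0.5. The part of host cells in these counts was not tested. Across 363 genes the wild-type log2 levels of tumours correlated with those of MCA205 cells at r = 0.66 and with those of TC1 cells at r = 0.54, a description only, since host cells enter the tumours. MCA205 and TC1 cells correlated with each other at r = 0.69 on the same genes, above both values for tumours. The tumour libraries are named below as they are labelled.

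Long noncoding RNAs took a larger share of all counts in sgNAT10 libraries of MCA205 cells and tumours and a smaller share in TC1 cells. In MCA205 cells the share was 0.448%, 0.444% and 0.457% in wild type and 0.542%, 0.540% and 0.534% in sgNAT10. In TC1 cells it was 0.4998%, 0.477% and 0.475% against 0.371%, 0.430% and 0.462%, and in tumours 0.549%, 0.516% and 0.558% against 0.657%, 0.727% and 0.774%. In each setting the genotypes did not overlap, and the sgNAT10 replicates of TC1 cells spread most. The exact two-sided permutation test gave p = 0.1 each time, the smallest value that 3 libraries against 3 allow.

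**Figure D1:**
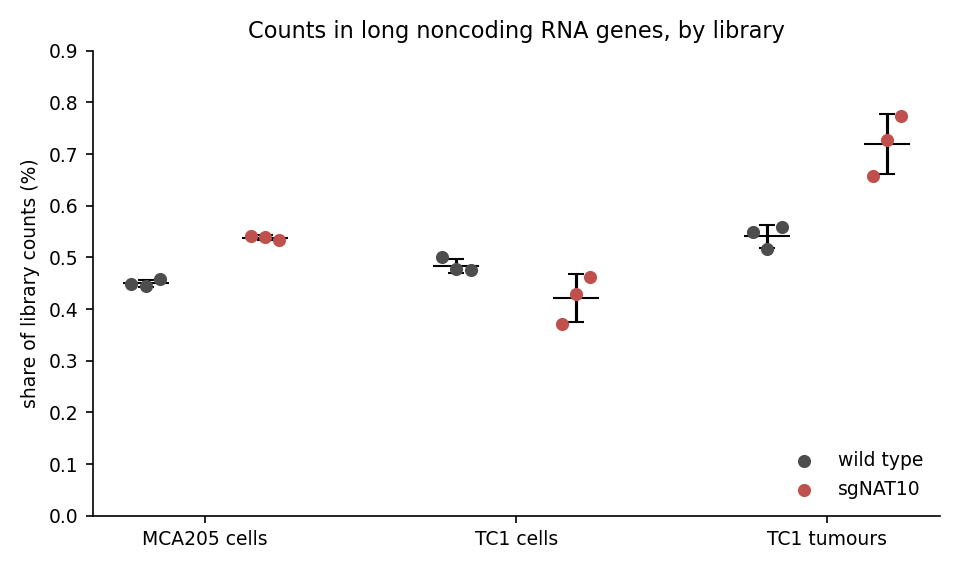
Share of all estimated counts (percent, from 0) taken by long noncoding RNA genes in each of the 18 libraries, points by genotype and setting with the group mean as a line. Wild-type means are 0.450% in MCA205 cells, 0.484% in TC1 cells and 0.541% in tumours, against 0.538%, 0.421% and 0.719% in sgNAT10.

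The direction of change differed between the settings. In sgNAT10 MCA205 cells 170 genes rose and 103 fell, in TC1 cells 84 rose and 193 fell, and in tumours 127 rose and 24 fell, at an adjusted p under 0.05 in edgeR's quasi-likelihood test. These were calls among 1380, 1310 and 1443 genes with enough counts, while 2546, 2622 and 2543 were too low to test. As shares they were 12.3% higher and 7.46% lower in MCA205 cells, beside 21.2% and 19.4% of all features tested there. TC1 cells gave 6.41% and 14.7% beside 15.9% and 21.9% of all features, and tumours 8.80% and 1.66% beside 7.63% and 9.67%. In the tumours the share of long noncoding RNA genes called higher was close to that of all features, and the share called lower was below it. Both tumour counts depended on single libraries, as given below.

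Most changes were of at least 2-fold, 124 rises and 77 falls in MCA205 cells, 71 and 168 in TC1 cells, and 115 and 20 in tumours. The median log2 change of the tested long noncoding RNA genes was 0.08 in MCA205 cells, -0.21 in TC1 cells and 0.46 in tumours, beside -0.03, -0.08 and 0.02 over all features. Scaling the tumours by library size alone moved the median of all features to 0.13 and that of the long noncoding RNA genes to 0.57, so the gap remained. The genotypes did not overlap in FPKM for 569 tested genes in MCA205 cells (41.2%, beside 52.5% of all features), 528 in TC1 cells (40.3%, beside 50.8%) and 527 in tumours (36.5%, beside 40.3%). Counts were low, with a median of 35.1, 31.7 and 37.5 per library and 419, 431 and 412 of the tested genes under a mean of 20.

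The tumour counts rested on single libraries. Without wild-type replicate 2 there were 49 rises and 5 falls, and without sgNAT10 replicates 1, 2 and 3 there were 39, 25 and 37 rises and 9, 3 and 7 falls. For these fits the shares were not set beside those of all features. In MCA205 cells the falls numbered 63 without wild-type replicate 3, and in TC1 cells 127 without wild-type replicate 1.

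**Figure D2:**
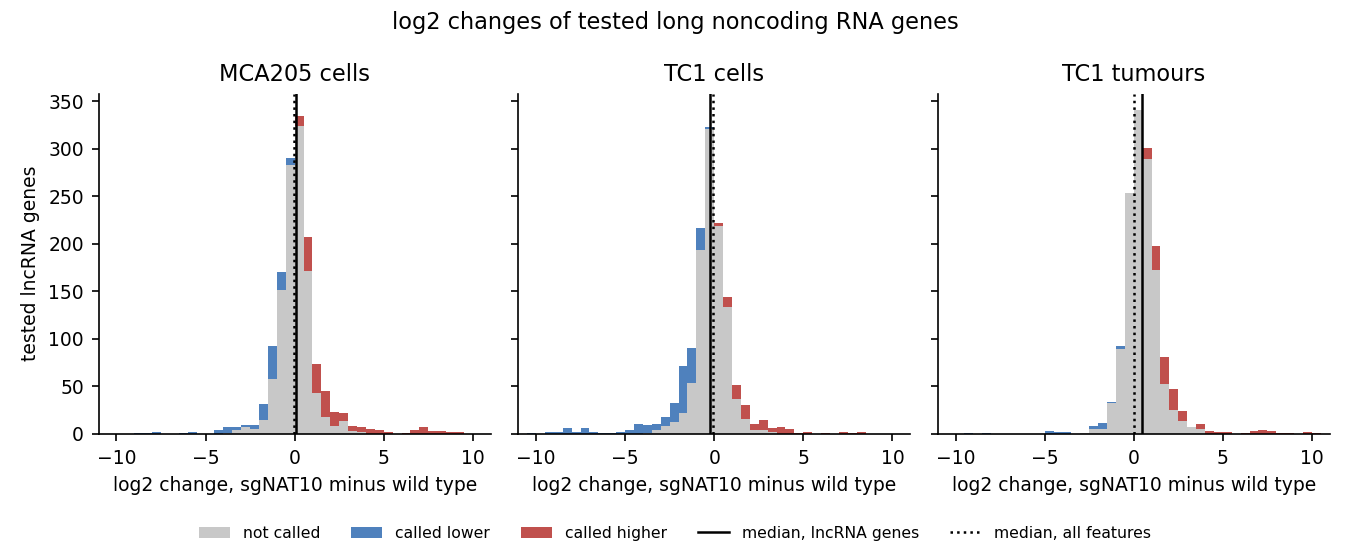
Distribution of log2 changes, sgNAT10 minus wild type, of tested long noncoding RNA genes in each setting, stacked by call. Lines mark their median and, dotted, the median of all features. The long noncoding RNA medians are 0.08, -0.21 and 0.46 in MCA205 cells, TC1 cells and tumours, beside -0.03, -0.08 and 0.02 for all features.

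In tumours every type of long noncoding RNA had a positive median, from 0.40 to 0.65. Of 678 tested antisense genes 53 rose and 2 fell (median log2 change 0.47), and of 603 lincRNA genes 64 rose and 20 fell (0.40), beside 7.63% of all features that rose and 9.67% that fell. The antisense rises lie near the share over all features, and the falls of both types below it. Genes overlapping a coding gene had a median of 0.48 and those overlapping none 0.43. Other noncoding classes differed among themselves, with a median of 0.62 for models still to be experimentally checked (TEC), 0.57 for processed transcripts and -0.30 for processed pseudogenes, while coding features stood at -0.005. In TC1 cells, 19 of 90 genes with bidirectional promoter transcripts fell, near the 21.9% of all features, and 2 rose, where 15.9% of all features did. Their median was -0.42, beside -0.08 over all features.

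Lncenc1 and Gm20559 were among the genes with large rises in MCA205 cells. Lncenc1 (chromosome 13, 97482701 to 97497007 in the MCA205 table, mm10), a long noncoding RNA known from embryonic stem cells, was at 1.62, 1.80 and 1.497 FPKM in wild type and 39.9, 42.3 and 36.4 in sgNAT10. The 2 groups are far apart and each is tight. Its log2 change was 4.60 (SE 0.08, adjusted p = 3.59e-07). In TC1 cells the same gene went the other way, from 2.11, 1.23 and 1.44 to 0.15, 0.09 and 0.04 FPKM, a log2 change of -4.08 (SE 0.49, adjusted p = 0.000886). The difference between the 2 effects was 8.64 (SE 0.41, adjusted p = 1.81e-07). Its TC1 rows begin at 97434970, at the start shown above, and its MCA205 rows do not reach it.

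Gm20559 (chromosome 6, 3333194 to 3346097, minus strand), a lincRNA from the interferon-linked list, was the only gene called higher in all 3 settings among the 986 tested in each. In MCA205 cells it rose from 0.852, 1.07 and 0.921 FPKM to 19.99, 21.1 and 19.5, a log2 change of 4.27 (SE 0.09, adjusted p = 4.62e-07). In TC1 cells the levels were 2.79, 0.791 and 0.517 against 5.27, 13.9 and 14.2 (log2 change 2.79, SE 0.66, adjusted p = 0.015). In tumours they were 10.8, 15.2 and 25.5 against 49.3, 76.0 and 76.9 (1.82, SE 0.28, adjusted p = 0.00946). No setting had overlapping genotypes, and in TC1 cells sgNAT10 replicate 1 stood lowest of its group. By the interaction contrast neither effect was shown to differ in size from that in TC1 cells. MCA205 minus TC1 was 1.41 (adjusted p = 0.153) and tumours minus TC1 -1.01 (adjusted p = 0.352). The effects in MCA205 cells and in tumours were not tested against each other.

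Several little-described genes changed in opposite directions in the lines. Gm35019, a lincRNA on chromosome 15 (37892995 to 37899716), rose in MCA205 cells from 2.10, 1.61 and 2.48 to 12.5, 13.7 and 13.1 FPKM, fell in TC1 cells from 2.41, 3.24 and 3.01 to 0.0622, 0.137 and 0.0718, and rose in tumours from 0.194, 0.462 and 0.764 to 5.45, 8.77 and 9.08. Its log2 changes were 2.67, -4.99 and 3.97, each called (SE 0.16, 0.35 and 0.46). Gm15398 followed the same course, with log2 changes of 3.08, -5.90 and 2.18. Of the 986 genes tested in all 3 settings, 6 were higher, lower and higher in this order: these 2 with Gm14002, Gm43154, Gm6639 and Kank4os. These 6 were picked by that order, so their direction in tumours is that in MCA205 cells by construction. Other orders were also seen among the 986. Gm42428 was higher, lower and lower, and Gm50322 lower, higher and lower. A further 3 were lower, lower and higher (2700054A10Rik, A230057D06Rik and Gm7967). Several calls of the 6 genes rested on single libraries. Those of Gm43154 in tumours were lost without wild-type replicate 2 or any sgNAT10 replicate (adjusted p = 0.0506 to 0.077), and those of Kank4os there without any sgNAT10 replicate (0.0801 to 0.0884). Gm6639 lost its MCA205 call without wild-type replicate 2 or any sgNAT10 replicate (0.062 to 0.0765) and its tumour call without sgNAT10 replicates 2 or 3 (0.069 and 0.064). Gm14002 lost its MCA205 call without sgNAT10 replicates 2 or 3 (0.0534 and 0.0686) and its tumour call without sgNAT10 replicate 2 (0.0505).

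Some genes were detected in 1 genotype only. Gm41492 (chromosome 16, 91138455 to 91159089) had 483 counts over the 3 wild-type TC1 libraries and 0 over the sgNAT10 ones, at least 160-fold lower against a floor of 3 counts for the group, and in MCA205 cells it had 0 and 53 counts, at least 16.3-fold higher. EU599041 was listed at 0 throughout the wild-type tumours, whereas sgNAT10 tumours held 1.61, 1.88 and 2.17 FPKM, at least 199-fold higher. Ptprtos, antisense to the phosphatase gene Ptprt, was at 0 against 2.25, 3.79 and 2.89 FPKM there, at least 140-fold higher. Gm50475 went the other way, from 1.11, 1.10 and 1.39 FPKM to 0, at least 40.0-fold lower.

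The snoRNA hosts fell together in TC1 cells and did not in the other settings. Of 22 symbols listed, 19 were found among the long noncoding RNA genes and 18 were tested. In TC1 cells 13 of the 18 fell and 0 rose, with a median log2 change of -1.03 beside -0.08 over all features, while 21.9% of all features fell. In MCA205 cells 5 rose (Gas5, Zfas1, Snhg12, Snhg20 and Epb41l4aos) and 3 fell (Snhg15, Snhg17 and Snhg18), with a median of 0.38, beside 21.2% and 19.4% of all features. In tumours 0 were called either way, with a median of -0.09. The list was drawn up with earlier results of these data known.

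Snhg1 (chromosome 19, 8723475 to 8726443) fell from 91.8, 76.7 and 90.4 FPKM in wild-type TC1 cells to 22.4, 22.4 and 18.01 in sgNAT10. The 2 groups lay far apart, and the log2 change was -1.99 (SE 0.12, adjusted p = 5.71e-05). In MCA205 cells it stood at 18.2, 23.1 and 22.1 against 33.6, 27.6 and 26.7 FPKM and was not called (0.38, adjusted p = 0.0567). The effects in the 2 lines differed by 2.32 (SE 0.21, adjusted p = 1.29e-05).

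Gas5 (chromosome 1, 161034607 to 161038539), a host known to accumulate when growth stops, went in opposite directions. It fell in TC1 cells from 130, 106 and 132 FPKM to 48.4, 50.4 and 38.4 (log2 change -1.47, SE 0.13, adjusted p = 0.000309). It rose in MCA205 cells from 61.0, 68.3 and 86.6 to 129, 124 and 96.9 (0.74, SE 0.16, adjusted p = 0.0103). Neither pair of groups overlapped, although wild-type replicate 3 and sgNAT10 replicate 3 of MCA205 cells came close. In tumours wild-type replicate 1 alone reached 252 FPKM while the others stood at 83.9 and 58.6, beside 101.7, 101.05 and 176.5 in sgNAT10, and the groups overlapped. The effects of MCA205 and TC1 cells differed by 2.16 (SE 0.25, adjusted p = 7.10e-05).

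Snhg12 fell in TC1 cells from 37.4, 28.4 and 32.9 FPKM to 9.72, 8.64 and 9.68 and rose in MCA205 cells from 11.02, 10.6 and 12.6 to 34.4, 28.7 and 25.5, with log2 changes of -1.82 and 1.05. Zfas1 did the same, with -1.77 and 0.73. Snhg18 fell most steeply in TC1 cells, from 8.40, 10.5 and 8.06 FPKM to 0.599, 0.412 and 0.317 (-4.36, SE 0.28), and fell less in MCA205 cells (-0.52). The TC1 fall of Snhg5 was -1.88 and that of Snhg6, the least steep that held when any library was left out, -0.60. A snoRNA-linked transcript outside the list, 1110038B12Rik, fell in TC1 cells from a mean of 81.5 to 35.6 FPKM (-1.35) and rose in MCA205 cells from 25.7 to 45.3 (0.85).

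Against tumours, the TC1 cell effect differed by 1.78 for Snhg1, 1.92 for Snhg12 and 4.45 for Snhg18, called in each case, and by 1.24 for Gas5, not called (adjusted p = 0.207). The Snhg1 difference was lost without sgNAT10 replicates 2 or 3 of the TC1 cells (adjusted p = 0.0505 and 0.0574) and when all transcript types of the gene were summed (0.0971). The TC1 calls of Snhg15 and Snhg8 were lost when 1 of 5 and 1 of 4 libraries was left out, namely all but sgNAT10 replicate 1 for Snhg15 and wild-type replicates 1 and 3 and sgNAT10 replicates 2 and 3 for Snhg8, with adjusted p of up to 0.124 and 0.0867. Snhg8 was also not called on whole gene sums (0.153). Wild-type tumour replicate 1 stood highest for many hosts, with 104 FPKM of Snhg1 and 85.3 of Zfas1.

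**Figure D3:**
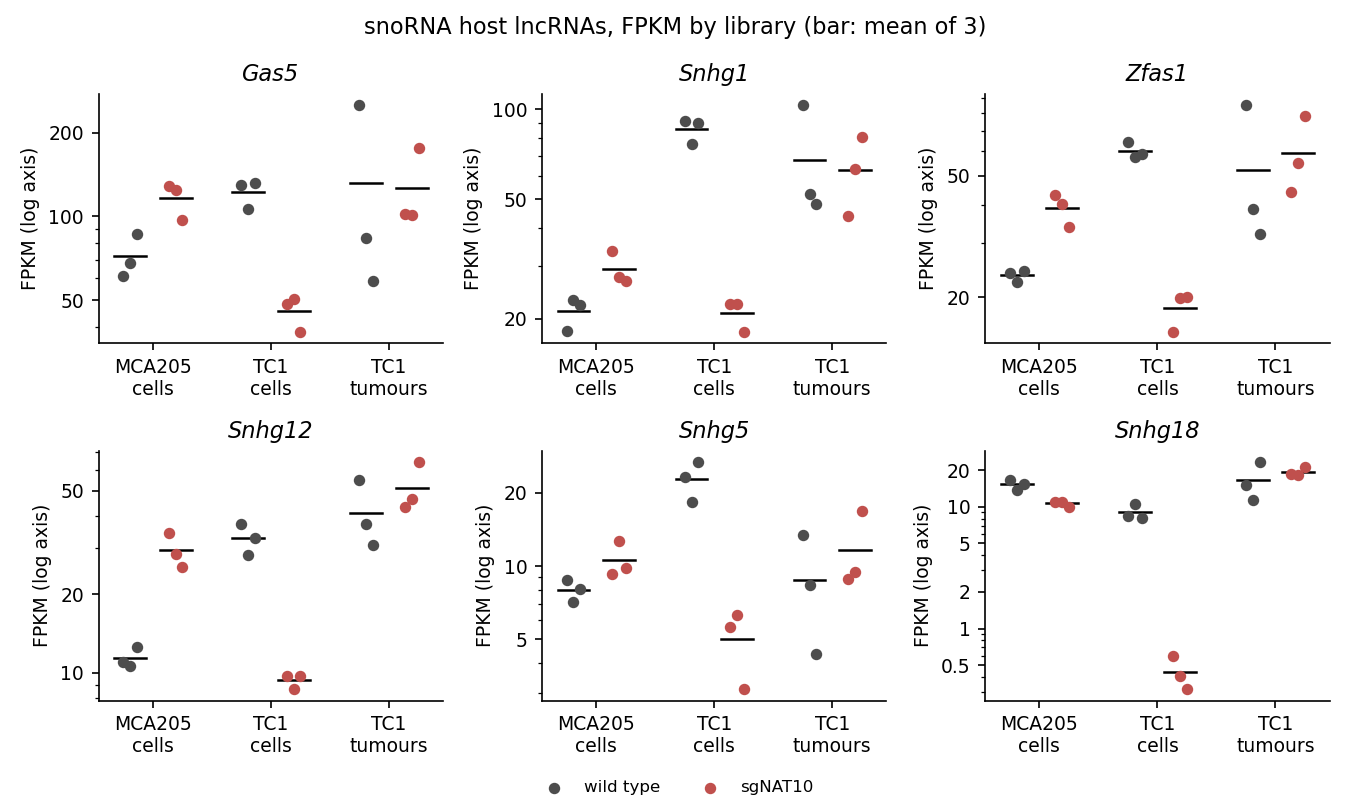
Levels (FPKM, log scale) of 6 snoRNA hosts in each library, by setting and genotype. In TC1 cells all 3 sgNAT10 points lie under all 3 wild-type points for each host, as for Snhg1 at 18.01 to 22.4 against 76.7 to 91.8, while in tumours the genotypes overlap.

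Among 24 listed immune and interferon-linked symbols 15 were long noncoding RNA genes here. In MCA205 cells 5 of 10 tested rose and 0 fell (median log2 change 0.90), in TC1 cells 1 rose and 1 fell of 8 (0.14), and in tumours 2 rose and 1 fell of 11 (0.71). Over all features 21.2% rose and 19.4% fell in MCA205 cells, 15.9% and 21.9% in TC1 cells and 7.63% and 9.67% in tumours, with medians of -0.03, -0.08 and 0.02, so the TC1 counts do not exceed that background. The genes that rose in MCA205 cells were Gm20559, Neat1, Mirt1, Ptgs2os and Ptgs2os2. Ptgs2os2, which lies beside the gene for the inflammatory enzyme cyclooxygenase, rose from 8.71, 7.40 and 6.27 FPKM to 13.6, 14.3 and 13.6 (0.90, SE 0.12, adjusted p = 0.0011). Morrbid, a regulator of myeloid cell lifespan, fell in TC1 cells from 6.88 ± 0.398 to 5.07 ± 0.405 FPKM (SD, n = 3; log2 change -0.46, edgeR adjusted p = 0.0184), but the call was lost when any 1 of the 6 libraries was left out (adjusted p = 0.0666 to 0.11). Leukocyte markers summed to 37.3 to 48.7 FPKM in wild-type and 71.4 to 135 in sgNAT10 TC1 cells, and without Lyz2 to 13.1 to 16.1 and 29.4 to 36.9. Of the 10 markers 6 had a higher and 4 a lower mean in sgNAT10. Only 3 were called, Lyz2, Csf1r and Cd68, all higher.

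AW112010, an interferon-inducible RNA of immune cells, was at 65.8, 51.9 and 97.6 FPKM in wild-type tumours and 174, 135 and 157 in sgNAT10 tumours. The groups did not overlap, with a log2 change of 1.01 (SE 0.22, adjusted p = 0.0228). The call was lost without wild-type replicate 2 or any 1 of the 3 sgNAT10 replicates (adjusted p = 0.0528 to 0.0856). Of the 10 leukocyte markers 6 had a higher mean in the sgNAT10 tumours, among them Ptprc, the pan-leukocyte marker, at 7.81, 11.5 and 24.1 against 25.7, 28.3 and 24.2 FPKM (not called, adjusted p = 0.135). The part of leukocytes in the AW112010 rise was not tested. Mirt1, which had risen in MCA205 cells (0.57), fell in tumours from 7.04, 6.33 and 3.23 FPKM to 1.31, 1.07 and 1.77 (-1.96, adjusted p = 0.0174). That fall was not called without wild-type replicate 2 or sgNAT10 replicates 1 or 2 (0.0642 to 0.0822).

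Among nuclear structural RNAs, Neat1 rose in MCA205 cells and Malat1 in tumours. Of 5 tested, 3 rose in MCA205 cells (Neat1, Malat1 and Oip5os1) and 1 in each of the other settings, with 0 falls, where 21.2%, 15.9% and 7.63% of all features rose in MCA205 cells, TC1 cells and tumours. The list medians were 0.34, -0.09 and 0.56, beside -0.03, -0.08 and 0.02 over all features. Neat1 (chromosome 19, 5824708 to 5845478), the scaffold of paraspeckles, rose in MCA205 cells from 17.2, 22.3 and 21.8 FPKM to 43.6, 46.4 and 38.1 (1.17, SE 0.07, adjusted p = 4.16e-05). In TC1 cells it stood at 36.5, 27.7 and 31.1 against 13.4, 26.9 and 29.4 and was not called (adjusted p = 0.296), and the effects of the 2 lines differed by 1.44 (adjusted p = 0.00152). Malat1, its neighbour and a component of nuclear speckles, rose in tumours from 18.7, 20.9 and 28.7 to 52.3, 56.1 and 52.3 FPKM (1.13, SE 0.14, adjusted p = 0.00531). Its smaller MCA205 rise of 0.41 was lost without sgNAT10 replicate 1 or 3 (0.0508 and 0.0522). That of Oip5os1 (0.20) was lost without sgNAT10 replicates 2 or 3 (0.102 and 0.126). The mouse counterpart of NORAD, 2900097C17Rik, which binds Pumilio proteins, rose in TC1 cells from 36.3, 38.5 and 38.6 to 47.9, 55.1 and 56.2 FPKM (0.44, adjusted p = 0.00338). Of 7 genes linked to p53 that were tested, 2 rose in MCA205 cells (Neat1 and Gm37494), 0 in TC1 cells and 1 in tumours (Gm37494), with 0 falls and medians of 0.36, -0.07 and 0.65. The MCA205 count lies near the 21.2% of all features that rose, and the tumour count is a single gene where 7.63% rose. Gm37494 stood at 1.08 against 1.31 FPKM in MCA205 cells (0.36) and at 1.49 against 2.50 in tumours (0.67). Its calls were lost without sgNAT10 replicates 1 or 2 in the cells (0.0507 and 0.0534) and without wild-type replicate 2 or any sgNAT10 replicate in tumours (0.105 to 0.153).

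Imprinted long noncoding RNAs did not move as 1 group. In MCA205 cells 3 of 8 tested fell and 0 rose, where 19.4% of all features fell and 21.2% rose, with a median log2 change of -2.39 beside -0.03. Snhg14, which runs through the Prader-Willi and Angelman region and opposes Ube3a, fell from 1.49, 1.27 and 1.13 FPKM to 0.235, 0.229 and 0.225 (-2.73, SE 0.19, adjusted p = 6.55e-05). Peg13, expressed from the paternal chromosome, fell from 0.769, 1.25 and 0.865 to 0.0602, 0.00972 and 0.0653 FPKM (-4.40, adjusted p = 0.00218). The third was A330076H08Rik, which lies near Snhg14 (-5.59). The groups of these 3 did not overlap.

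In tumours 3 imprinted genes rose and 2 fell of 11 tested, where 7.63% of all features rose and 9.67% fell, with a median of 0.84 beside 0.02. Airn, which silences Igf2r in cis, rose from 1.32 ± 0.809 to 4.40 ± 0.460 FPKM (SD, n = 3; log2 change 1.72, edgeR adjusted p = 0.0206). That call was lost without wild-type replicate 2 or any sgNAT10 replicate (0.0624 to 0.0887). Peg13 fell from 1.33, 1.41 and 1.76 to 0.486, 0.583 and 0.550 (-1.58, adjusted p = 0.00596). Kcnq1ot1 rose from 0.142 to 0.376 FPKM (1.29), which was not called without sgNAT10 replicate 2 (0.0532), and the rise of A330076H08Rik (1.74) was lost without any 1 of 5 libraries, all but wild-type replicate 3. The tumour fall of Snhg14 (-2.39) was lost without wild-type replicate 2 or any sgNAT10 replicate (0.0697 to 0.114). In TC1 cells only Rian was called among 8 tested, where 15.9% of all features rose, at 0.252, 0.354 and 0.319 FPKM against 0.333, 0.947 and 2.16 (1.90). Its groups overlapped, and the call was lost without wild-type replicates 1 or 2 (0.0625 and 0.0656). H19, a growth-restraining imprinted RNA, stood at 4.17, 6.23 and 29.6 FPKM in wild-type tumours and 48.95, 50.2 and 34.96 in sgNAT10 and was not called (adjusted p = 0.109).

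Fendrr, a lateral mesoderm RNA that shares a promoter region with Foxf1, rose in MCA205 cells from 10.97, 10.6 and 10.98 FPKM to 25.9, 24.8 and 25.9 (log2 change 1.202, SE 0.04, adjusted p = 4.39e-06). It rose in tumours as well, from 17.4, 18.7 and 18.3 to 35.5, 38.4 and 35.4 (0.84, SE 0.09, adjusted p = 0.00417). These groups are tight and well apart. Foxf1, a transcription factor of mesenchyme, was slightly lower at the same time (-0.21 and -0.41, both called). In TC1 cells Fendrr stood at 9.46, 10.6 and 9.99 against 8.68, 14.9 and 12.8 FPKM and was not called. Of the other developmental antisense genes Tbx3os1 rose in MCA205 cells (2.11) and Emx2os in tumours (2.24), and each call was lost when 1 of 3 libraries was left out: wild-type replicate 3 and sgNAT10 replicates 2 and 3 for Tbx3os1 (0.0846 to 0.0931), and wild-type replicate 2 and sgNAT10 replicates 1 and 2 for Emx2os (0.0652 to 0.0682).

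In the Hox cluster list, Gm53, a lincRNA of the HoxB region (chromosome 11, 96251105 to 96264868), fell in TC1 cells from 5.23, 5.66 and 5.81 FPKM to 0.122, 0.0204 and 0.307 (-5.41, SE 0.60, adjusted p = 0.000665). It was the only 1 of 6 tested there to be called, where 21.9% of all features fell. Hoxa11os, antisense to a posterior Hox gene, held its level in MCA205 cells (10.6 ± 1.44 against 11.7 ± 0.776 FPKM, SD, n = 3) and was not called. Among microRNA hosts Mir17hg, the host of a growth-promoting cluster, fell in MCA205 cells from 6.51, 6.26 and 5.93 to 3.28, 3.54 and 3.58 FPKM (-0.84, adjusted p = 9.77e-05). Mir99ahg rose in tumours from 2.23, 2.16 and 3.31 to 6.70, 7.28 and 6.58 (1.19, adjusted p = 0.00787).

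2 stretches of chromosome in which neighbours moved together were picked out after their values were seen. The first lies on chromosome 1 from 84992690 to 85709998 and holds the Sp100, Sp110 and Sp140 genes, which encode interferon-inducible proteins of nuclear bodies. In sgNAT10 MCA205 cells all 7 long noncoding RNA genes tested there rose, with a median log2 change of 7.69, and so did 19 of the 20 other features, where 21.2% of all features rose. Gm10553, whose value is that median, was at 0 in wild type, as were Gm16028, Gm16025 and Gm10552. The median therefore depends on the prior count and is no bound. In tumours 7 of 8 long noncoding RNA genes rose (median 2.50), Gm16092 being the exception, with 18 of 22 other features, where 7.63% of all features rose. In TC1 cells 0 of 2 and 0 of 10 were called.

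A530040E14Rik, antisense in this stretch, stood at 0.00924, 0.0570 and 0.0624 FPKM in wild-type MCA205 cells and 2.05, 1.85 and 1.74 in sgNAT10 (5.10, SE 0.63, adjusted p = 0.000792). In tumours it was at 2.64, 3.01 and 7.07 against 27.0, 26.1 and 21.8 (2.49, SE 0.34, adjusted p = 0.00686). Gm16028 and Gm10552 were at 0 in wild-type MCA205 cells and at least 77.5-fold and 44.3-fold higher in sgNAT10. Sp100 itself rose from 5.07 to 22.6 FPKM there and Sp140 from 1.49 to 8.71. Gm10552 matches A530040E14Rik over 372 bases at 100% identity, and parts of Gm16028 match Sp110. Gm10553 matches both of the first pair over 372 bases at 98.7% identity, and Gm16025 matches Gm17017 over 2409 bases at 98.3%, so reads of these genes cannot be told apart with certainty. Of the 7 called in MCA205 cells, Gm16094 and Gm17017 each lost the call without any 1 of 5 libraries, all but 1 in each case (adjusted p up to 0.144 and 0.161): wild-type replicate 2 for Gm16094 and sgNAT10 replicate 2 for Gm17017 made no difference. In tumours Gm16094, Gm17017, Gm10553 and Gm16025 were not called without wild-type replicate 2 or any sgNAT10 replicate (adjusted p up to 0.0673, 0.128, 0.0711 and 0.0744).

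The second stretch lies on chromosome 5 from 8046078 to 9161776, between Sri, which encodes a calcium-binding protein, and Dmtf1. In sgNAT10 TC1 cells both long noncoding RNA genes tested there rose, with 13 of 15 other features, where 15.9% of all features rose. Gm15731 went from 0.313, 0.0996 and 0.248 FPKM to 4.15, 5.29 and 5.76 (4.45, SE 0.41, adjusted p = 0.000326) and Gm5106 from 0.399, 0.502 and 0.346 to 4.91, 5.20 and 5.13 (3.55, SE 0.22, adjusted p = 7.03e-05). Over the other features the median was 4.22, with a range from 0.55 to 7.90. The coding gene Abcb4 was not called (0.88, adjusted p = 0.0949) and Dmtf1 rose by 1.90, less than the rest that were called. Larger rises were those of Sri from 33.4 to 635 FPKM, Dbf4, which activates a replication kinase, from 44.1 to 869, and Abcb1b, a drug efflux pump, from 19.2 to 246. In MCA205 cells and in tumours 0 of 2 long noncoding RNA genes rose. Gm15731 stood at 0.753 FPKM in wild-type and 0.463 in sgNAT10 tumours, so the tumours labelled as grown from sgNAT10 TC1 cells did not show this rise, and the effects differed by -5.30 (adjusted p = 0.000203).

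**Figure D4:**
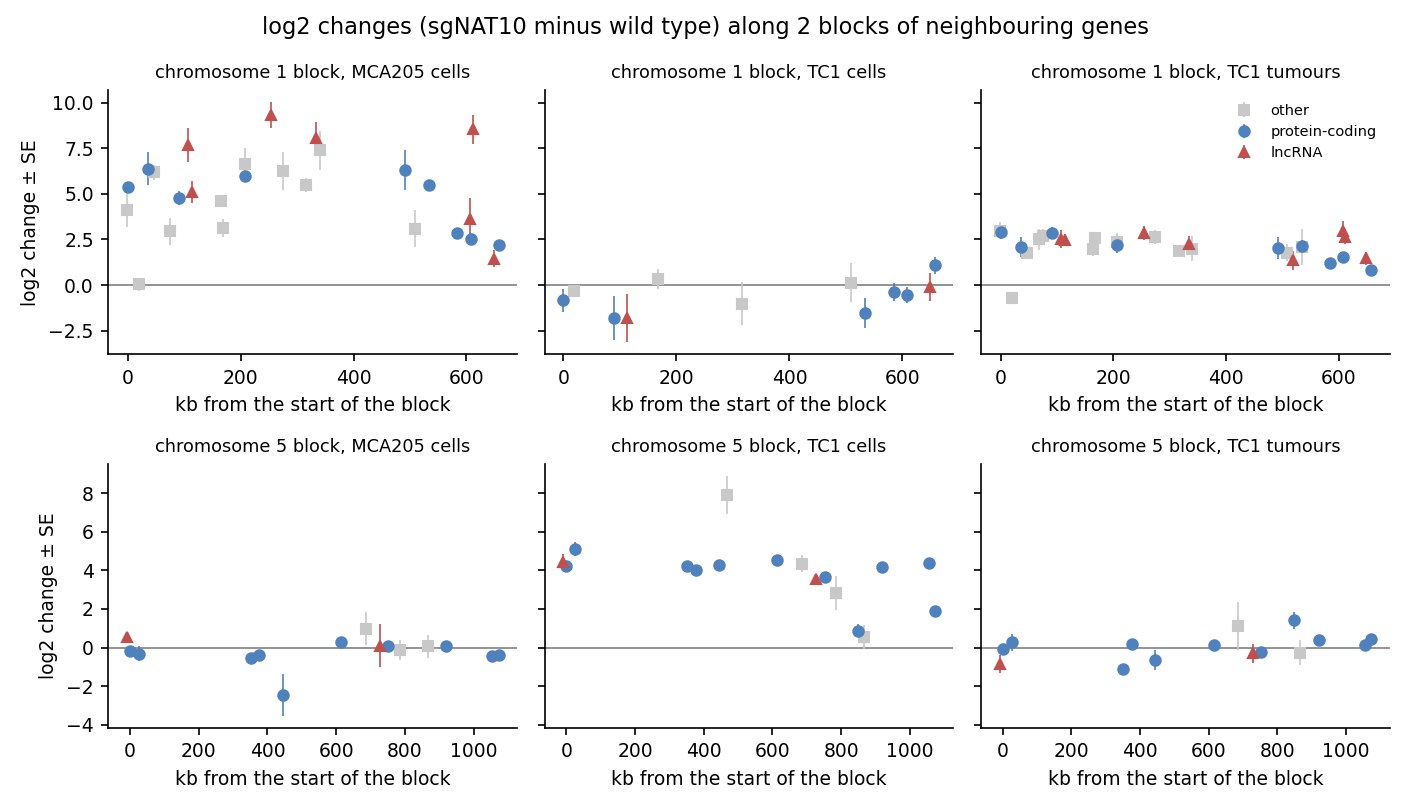
Log2 change, sgNAT10 minus wild type, of each tested feature against its distance (kb) from the first gene of the chromosome 1 and chromosome 5 stretches, in the 3 settings, with long noncoding RNA genes marked. On chromosome 1 the long noncoding RNA genes lie above 0 in MCA205 cells and tumours (medians 7.69 and 2.50), while the lowest other feature, the pseudogene Rpl19-ps1, is at 0.04 and -0.69. The MCA205 median is the value of a gene at 0 in wild type, so its size depends on the prior count. On chromosome 5 both long noncoding RNA genes lie far above 0 in TC1 cells.

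Where a long noncoding RNA gene overlaps a coding gene on the opposite strand or starts beside it, both were mostly called in the same direction when both were called. Among pairs that overlap on opposite strands, 56 of 69 such pairs in MCA205 cells, 67 of 77 in TC1 cells and 23 of 24 in tumours agreed in sign. Among divergent pairs, with starts within 2 kb on opposite strands, the counts were 19 of 21, 23 of 26 and 3 of 4. Over all tested pairs the log2 changes correlated at r = 0.53, 0.39 and 0.39 for the 818, 780 and 869 antisense overlaps and at 0.55, 0.44 and 0.26 for the 226, 228 and 231 divergent pairs. Overlaps on the same strand were fewer, with 8 of 9, 3 of 3 and 0 of 1 in the same direction and r = 0.09, 0.32 and 0.28 over 81, 75 and 80 pairs. No strand setting is given in the sources used here, so the members of an overlapping pair may share reads, whereas divergent bodies do not overlap. Pairs share libraries, and some share a gene.

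Snhg1 and Slc3a2, which encodes a subunit of an amino acid transporter, start 106 bases apart and fell together in TC1 cells, Slc3a2 from 195 to 64.4 FPKM (log2 change -1.60 beside -1.99 for Snhg1). Snhg18 and Sema5a, which encodes a guidance protein, start 148 bases apart and changed by -4.36 and -4.88 on the log2 scale. Gm43050 and Tbx5, a limb and heart transcription factor, start 646 bases apart and rose in TC1 cells by 4.43 and 3.22. Gm10561 fell with Rftn2, which it overlaps (-4.40 and -5.10). In tumours 2700069I18Rik rose from 0.391, 0.229 and 0.181 FPKM to 3.79, 4.55 and 4.24 (3.92), and Zfhx4, opposite to it, rose by 1.84.

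A few pairs were called in opposite directions. Zfas1 and Znfx1, an antiviral RNA sensor, start 81 bases apart. Both rose in MCA205 cells (0.73 and 2.14), whereas in TC1 cells Zfas1 fell by 1.77 and Znfx1 rose by 1.67, from 6.14 to 20.5 FPKM. Gm48293 rose in TC1 cells by 3.94 while Clmp, a cell adhesion gene that it overlaps, fell by 4.34. The Gm48293 call was lost without wild-type replicate 1 (adjusted p = 0.0521).

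**Figure D5:**
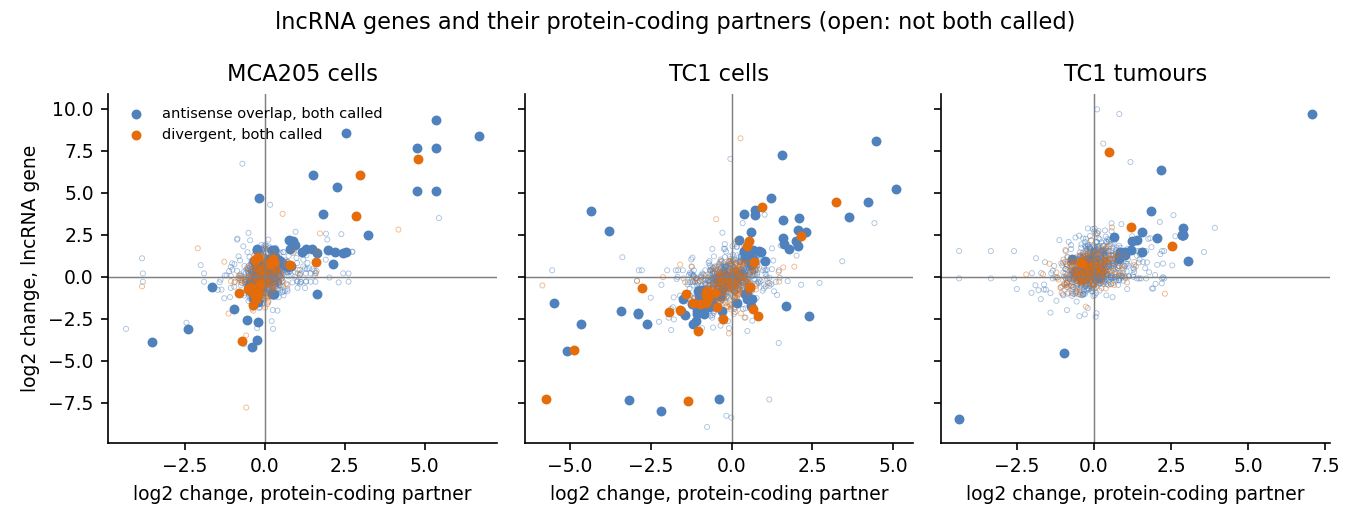
Log2 change of tested long noncoding RNA genes (y axis) against that of their coding partners (x axis), for antisense overlaps and divergent pairs in the 3 settings. Pairs in which both were called are filled and the rest are open. Most filled points lie in the quadrants of equal sign, 56 of 69 antisense overlaps in MCA205 cells and 67 of 77 in TC1 cells.

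The sgNAT10 effect itself differed between MCA205 and TC1 cells for 328 of 1691 long noncoding RNA genes, 237 with the higher effect in MCA205 cells and 91 with the lower, against 18.9% and 16.4% of all features. In both directions this is a smaller share than over all features. The median difference was 0.29, beside -0.03 over all features. Between tumours and TC1 cells the effect differed for 280 of 1800, 230 higher and 50 lower in tumours, against 13% and 13% of all features, with medians of 0.68 and 0.08. The share of higher effects was close to that of all features, and the share of lower ones was below it. Both contrasts use the same TC1 cell libraries, so they are not independent.

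Of the genes tested in both, 68 were called in MCA205 and in TC1 cells, 32.5% of the MCA205 calls and 28.9% of the TC1 calls. Of these 37 were higher in MCA205 and lower in TC1 cells, 4 the reverse, 8 higher and 19 lower in both. MCA205 cells and tumours shared 57 calls (23.6% and 43.5%), of which 38 were higher and 7 lower in both. TC1 cells and tumours shared 29 (12.2% and 26.9%), and 20 of them were lower in TC1 cells and higher in tumours, with 1 higher and 6 lower in both. The 3 comparisons use separate libraries. Tumour calls were mostly rises, 127 against 24 falls, which favours pairs with a rise in tumours. The same overlap over all features is not given here. Whether these counts are particular to long noncoding RNA genes was therefore not tested.

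In wild type a small set of genes made up much of the long noncoding RNA. The 10 most abundant held 26.6% of the summed FPKM in MCA205 cells, 31.3% in TC1 cells and 33.4% in tumours, and the tables may have been normalised separately, so levels are set side by side with no test. AI506816 led in all 3, at 203 ± 8.27, 173 ± 8.56 and 193 ± 22.1 FPKM (SD, n = 3), and was not called in any comparison. Gas5 came second each time, at 72.0 ± 13.2, 123 ± 14.3 and 131 ± 105 FPKM. AU020206 stood at 39.2, 29.0 and 131 FPKM in MCA205 cells, TC1 cells and tumours, and Gm46620 at 4.35, 49.7 and 4.49 FPKM, in both cases with 1 setting well above the other two. Genes of at least 10 FPKM numbered 35, 32 and 40 in wild type and 43, 27 and 47 in sgNAT10, and those of at least 1 FPKM 345, 333 and 322 against 350, 293 and 440.

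Near-identical copies limit some of the abundant genes. Gm42428 and Gm48275, on chromosomes 5 and 10, have matching transcripts and moved together, in MCA205 cells from 30.4 to 66.4 and from 41.9 to 93.0 FPKM (1.13 and 1.16) and in tumours by -4.05 and -4.13. Their reads cannot be told apart. The tumour call of Gm42428 was lost without sgNAT10 replicate 2 (adjusted p = 0.0576). Gm42047, with at least 5 partial copies elsewhere, fell in MCA205 cells from 42.2, 38.9 and 39.6 FPKM to 11.8, 11.1 and 13.6 (-1.72), and Gm43549, 1 of the copies, fell with it (-2.06). Gm10076 matches the ribosomal protein gene Rpl41 over its whole length, so its level may be that of Rpl41. A transcript of 2900097C17Rik matches Gm7292 over 339 bases at 100% identity, and Gm46620 matches Gm42427 over 1854 bases at 99.7%. Reads of these genes cannot be told apart with certainty either.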

How the data were processed

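RNA from 18 mouse libraries was sequenced after column purification, per the labels' protocols. Bowtie2, featureCounts, FastQC, Trim Galore and mm10 are named, without roles, in the submitters' processing notes. The 3 deposited tables, 1 for each comparison, list transcripts with estimated counts, which the authors deposited as whole numbers, and FPKM values, which the authors scaled to transcript length and library size, per the file headers. The program that assigned reads to transcripts, and its strand setting, are not given in the sources used here. KO columns hold the sgNAT10 libraries, and 0 columns were without a sample.

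Long noncoding transcripts were summed per gene, and all other transcripts of a gene were summed apart, since FPKM and counts are given per transcript. A ratio of summed FPKM can therefore differ from a fitted change of counts. All features of a table were fitted together with edgeR 4.0.16 (TMM, filterByExpr, quasi-likelihood test, Benjamini-Hochberg adjustment over all features) in R 4.3.3, and adjusted p-values are from this test. Differences of effects were interaction contrasts over 12 libraries. A change was called at an adjusted p under 0.05. A fitted change against a group at 0 depends on the prior count, so a bound against 3 counts is given. Of member transcripts 97.9% to 98.2% were in GENCODE M21. Libraries of a group differed by more than sampling noise (lowest chi-square ratio 10.9). The fits were tested on simulated data, in which most of the changes set in long noncoding RNA genes were not called, while more of those set in features at large were, and unchanged features made up more of the calls within each setting than the threshold allows. A gene that was not called may therefore have changed.

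The genes, lists and tests were chosen with earlier results of these data known. Named are the 8 largest rises and falls per comparison among called genes of at least 1 FPKM with groups apart, up to 4 called genes per list and list members of at least 10 FPKM, the 8 most abundant, up to 6 called alike in all settings, and up to 5 each of differences and coding pairs. A selection of these is printed. Genes named outside the rule (the 2 chromosome stretches, the label check, single list members and some genes called in every setting) were chosen after their values were seen. The alternatives tried were DESeq2 1.42.0, scaling by RLE or by library size, a minimum of 1 CPM in 3 libraries or of any count, whole gene sums, limma 3.58.1 on log2(FPKM + 1) or log2(FPKM + 0.1), genes overlapping no coding gene, a replicate block, each library left out, and MCA205 wild type 1 and sgNAT10 2 left out together. Promoter windows are from RefSeq, GRCm38.p6. Figures were drawn with matplotlib 3.10.9 in Python 3.11.15, with numpy 2.4.6, pandas 2.3.3 and scipy 1.17.1. Genes on the sex chromosomes and others not reported here numbered 46, 44 and 44 in the 3 tables.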

Additional observations from a re-analysis of the deposited data

Results flagged for a closer look

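By the interaction contrast, the sgNAT10 effect differed between MCA205 and TC1 cells for 328 of 1691 long noncoding RNA genes. Between tumours and TC1 cells it differed for 280 of 1800. Neither share exceeds that over all features, 18.9% higher and 16.4% lower for the first and 13% and 13% for the second. The largest such differences among genes of at least 1 FPKM are given here as log2 values, effect in the first setting minus effect in TC1 cells. Where all libraries of a group were at 0, the fitted size depends on the prior count and is no bound.

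For MCA205 cells against TC1 cells the effect was higher for Gm41492 (17.44), Gm43154 (15.48), Gm16028 (12.19), Gm41724 (11.55) and EU599041 (10.28). It was lower for Gm48293 (-9.11), 9430085M18Rik (-8.48), 2810429I04Rik (-6.73), Gm15469 (-5.49) and Peg13 (-4.65). The Gm15469 difference was lost without any 1 of 10 libraries (adjusted p = 0.0546 to 0.257). That of Gm48293 was lost when MCA205 wild type 1 and sgNAT10 2 were left out together (0.0512).

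For tumours against TC1 cells the effect was higher for EU599041 (17.3), Gm41492 (14.35), Gm43154 (13.9), Ptprtos (13.55) and Gm35019 (8.93). It was lower for Gm42893 (-16.96), Gm50475 (-7.7), Gm48293 (-5.89), Gm30042 (-5.48) and Gm15731 (-5.3). Gm42893 was seen in TC1 cells almost only in sgNAT10 replicate 1, at 1.68 FPKM. The Ptprtos difference was lost without wild-type TC1 replicate 2 (adjusted p = 1), and that of Gm48293 without any 1 of 6 libraries (0.0502 to 0.0675).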

How the results depend on the processing

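The counts kept their order of directions under the alternatives run. Against 170 higher and 103 lower genes in MCA205 cells, 84 and 193 in TC1 cells and 127 and 24 in tumours, genes that overlap no coding gene gave 96 and 65, 43 and 111, and 63 higher in tumours, by their smaller number. They also gave 175 of the 328 differences between MCA205 and TC1 cells and 141 of the 280 between tumours and TC1 cells. A filter of 1 CPM in 3 libraries gave 55 and 116 in TC1 cells. In tumours DESeq2 called 191 and 37, and no filter 84 and 15. Leaving out 1 library gave 128 to 172 higher and 63 to 84 lower in MCA205 cells, 56 to 115 and 127 to 183 in TC1 cells, 25 to 186 and 3 to 27 in tumours, and 263 to 322 and 209 to 306 differences. Unless the construction shows it, the cause was not tested.

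With the replicate block in the fit the counts were 101 higher and 42 lower in MCA205 cells, 53 and 139 in TC1 cells, 30 and 3 in tumours, and 210 and 177 differences. The MCA205 call of Gas5 and the TC1 call of Gm20559 were among the 63 lost with it (adjusted p = 0.0591 and 0.0529). Replicate numbers did not pair the libraries: deviations of same-numbered libraries correlated at -0.60 to 0.28, -0.08 to 0.09 and -0.20 to 0.10, and 0, 1 and 1 library pairs correlated best with their own number. Of 261 results for named genes 74 lost their call without some library. Over 4443 values under the alternatives 3983 stayed on their side of the threshold, 460 did not, and 0 reversed. The median of 31.7 to 37.5 counts per library limits what could be called.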

Other observations

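Further long noncoding RNA genes of the list chosen by rule changed by large amounts and overlap no coding gene. Gm13387, a lincRNA gene on chromosome 2 (25122603 to 25145396, minus strand), was at 0.468, 0.0619 and 0.150 FPKM in wild-type TC1 cells and at 3.97, 4.74 and 4.78 FPKM in sgNAT10 TC1 cells. All 3 sgNAT10 libraries stood above all wild-type ones, with a log2 change of 4.31 ± 0.43 (SE, n = 3 and 3) and an adjusted p of 0.000451 by edgeR's quasi-likelihood test. In MCA205 cells its mean was 2.29 FPKM in wild type and 1.81 in sgNAT10, and in tumours 0.373 and 0.319, and neither passed the test (adjusted p = 0.649 and 0.999).

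Gm43672, a lincRNA gene on chromosome 3, fell in both lines. In MCA205 cells it was at 1.68, 1.66 and 1.21 FPKM in wild type and 0.0849, 0.114 and 0.105 in sgNAT10, a log2 change of -3.82 ± 0.29 (SE; edgeR adjusted p = 0.000101). In TC1 cells the log2 change was -1.80 ± 0.28 (SE; edgeR adjusted p = 0.00280), and in tumours -0.22 ± 0.35 (SE), which did not pass the test (edgeR adjusted p = 0.679).

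2410012E07Rik, a lincRNA gene on chromosome 14, moved in opposite directions in the lines. In TC1 cells it was at 1.73, 1.11 and 2.00 FPKM in wild type and 0, 0 and 0.0455 in sgNAT10, a log2 change of -6.62 ± 0.91 (SE; edgeR adjusted p = 0.00155). In MCA205 cells it rose from 0.110, 0.0524 and 0.0843 FPKM to 0.455, 0.431 and 0.483, a log2 change of 2.42 ± 0.45 (SE; edgeR adjusted p = 0.00509). These levels are low, with 22 counts over the 3 wild-type MCA205 libraries and 4 over the 3 sgNAT10 TC1 libraries.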
